A study of Mus musculus with 16 samples.

Results

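The interferon-stimulated genes described here are a fixed set of 39 genes that cells switch on when they sense interferon or a virus. A gene was taken from the arrays by the RefSeq accession of its probe, and where a gene had several probes the one with the highest mean signal was used. Of the 39 genes, 37 had a probe with a value on all arrays, out of 20134 genes in all. The exceptions were *Mx1* and *Mx2*, which encode dynamin-like antiviral GTPases and which the annotation lists as transcribed pseudogenes in the C57BL/6J strain, and neither was measured.

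Interferons are secreted proteins that bind receptors on the cell surface. Type I interferons act through *Ifnar1* and *Ifnar2*, and interferon gamma acts through *Ifngr1* and *Ifngr2*. Janus kinases at the receptors then activate STAT proteins, which together with IRF proteins bind short DNA elements near the starts of the target genes. In brain, microglia, astrocytes, endothelial cells and neurons can all respond in this way, and microglia are known for a strong response.

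The samples were right-side neocortex of C57BL/6J mice, the side opposite to the lesion. Controls without surgery were taken at postnatal day (P) 7, P14, P35 and 10 weeks of age. Left cortical hemisuction, in which the left cortex with the sensorimotor area is aspirated, was done in neonates at P7 (NBH) or in adults (ABH). NBH animals were sampled 1 week (P14) and 4 weeks (P35) later, and ABH animals 1 week (11 weeks of age) and 4 weeks (15 weeks of age) later, by the labels, which set the ages of the ABH pools further apart than their times after surgery. NBH pools were set against the control of the same age. ABH pools were older than the control of 10 weeks they were set against, so surgery and those weeks of age cannot be told apart, and animals with anesthesia but no lesion were not analysed here. By the methods, RNA of 4 male animals was pooled per group, so every group is 1 pool. Each pool was labeled once with Cy3 on chip 1 and once with Cy5 on chip 2, which gave 16 arrays for 8 pools. The 2 arrays of a pool are technical repeats, so no test between groups was possible, the SD given below is that of the 2 dyes, and each result describes these pools.

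A level is the log2 intensity of a probe after background correction, minus the 75th percentile of the array, so that 0 is the signal of a spot brighter than 75 percent of the spots for genes. Levels were compared for 1 gene across pools, not between genes. A change is a difference of levels taken within a dye. Genes were called higher at 1.5-fold or more, and lower at 0.75-fold or less, with both dyes. A comparison needed a signal well above background with both dyes in at least 1 of its pools. *Oas3* met this in no comparison. *Tap1* was well above background only on the 2 arrays of ABH 1 week, and a value set against a dim array is a bound. The other 35 genes were well above background on at least 14 of the 16 arrays.

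Across whole arrays, the median spot intensity was between 192.5 and 253 over a median local background of 59 to 72. Some pools stood apart from their labels in other genes. Of 9 choroid plexus markers, 8, 4 and 8 were called higher at 1 and 4 weeks after NBH and at 4 weeks after ABH. The shares of all genes called higher there were 0.408%, 0.214% and 0.43%. In ABH 1 week 1 of 7 compared was called higher, against 4.45% of all genes. *Xist*, a transcript of female cells, stood well above background with both dyes in control P35, although the methods describe male animals. Each pool had 1 position on each chip, so position and pool cannot be told apart.

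The target genes share 2 known DNA elements, the interferon-stimulated response element (ISRE) of type I interferon and the gamma-activated site (GAS) of interferon gamma. The ISRE core was searched as GAAANNGAA and the GAS as TTCNNNGAA, on both strands, in RefSeq windows of 300 bases (250 before and 50 after the annotated start, build GRCm38.p6, the first window listed for a gene). A window was listed for 29 of the 39 genes. The ISRE core stood in 15 of the 29 windows (51.7%), against 8.57% of the windows of all 27025 genes. More than 1 match stood in 9 of the 29, against 0.666% of all genes, where matches that share letters were counted separately. The GAS letters stood in 9 of the 29 windows (31.0%), against 8.47% of all genes. These are matches of letters and no evidence of binding.

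The stretches below are 100 bases each from the 250 before the start of 9 of the genes, read 5′ to 3′ on the strand of the gene, and capitals mark the matches. The first 6 carry repeated ISRE cores, which appear as the reverse complement where the match is on the opposite strand.
Ifit1, chr19:34640760-34640859, plus strand: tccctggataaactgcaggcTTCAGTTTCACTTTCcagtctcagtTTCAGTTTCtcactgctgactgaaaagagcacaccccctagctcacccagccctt
Ifit3, chr19:34583354-34583453, plus strand: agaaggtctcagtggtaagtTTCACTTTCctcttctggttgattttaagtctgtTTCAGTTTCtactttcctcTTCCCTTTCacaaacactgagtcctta
Isg15, chr4:156200819-156200918, minus strand: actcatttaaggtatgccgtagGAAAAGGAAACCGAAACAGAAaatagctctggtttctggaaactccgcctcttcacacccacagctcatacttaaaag
Oas1a, chr5:120907526-120907625, minus strand: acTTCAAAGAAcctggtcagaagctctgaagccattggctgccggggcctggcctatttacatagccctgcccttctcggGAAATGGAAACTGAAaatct
Bst2, chr8:71537529-71537628, minus strand: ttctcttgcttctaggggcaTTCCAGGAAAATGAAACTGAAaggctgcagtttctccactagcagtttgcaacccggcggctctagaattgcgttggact
Gbp3, chr3:142559944-142560043, plus strand: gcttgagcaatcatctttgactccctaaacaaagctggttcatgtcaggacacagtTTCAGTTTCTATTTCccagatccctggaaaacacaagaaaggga
Irf8, chr8:120736167-120736266, plus strand: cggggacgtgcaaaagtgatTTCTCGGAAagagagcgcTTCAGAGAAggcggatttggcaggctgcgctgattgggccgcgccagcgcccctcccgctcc
Psmb8, chr17:34198078-34198177, plus strand: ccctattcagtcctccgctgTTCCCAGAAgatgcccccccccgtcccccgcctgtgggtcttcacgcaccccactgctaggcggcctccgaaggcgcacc
Oasl2, chr5:114896834-114896933, plus strand: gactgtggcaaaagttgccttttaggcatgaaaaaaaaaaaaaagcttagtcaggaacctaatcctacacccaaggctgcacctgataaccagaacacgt
*Irf8* and *Psmb8* show GAS letters without an ISRE core, and in *Bst2* a GAS match overlaps the ISRE cores. *Oasl2* is shown because its window held neither, although it was among the genes with the largest change below.

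**Figure D1:**
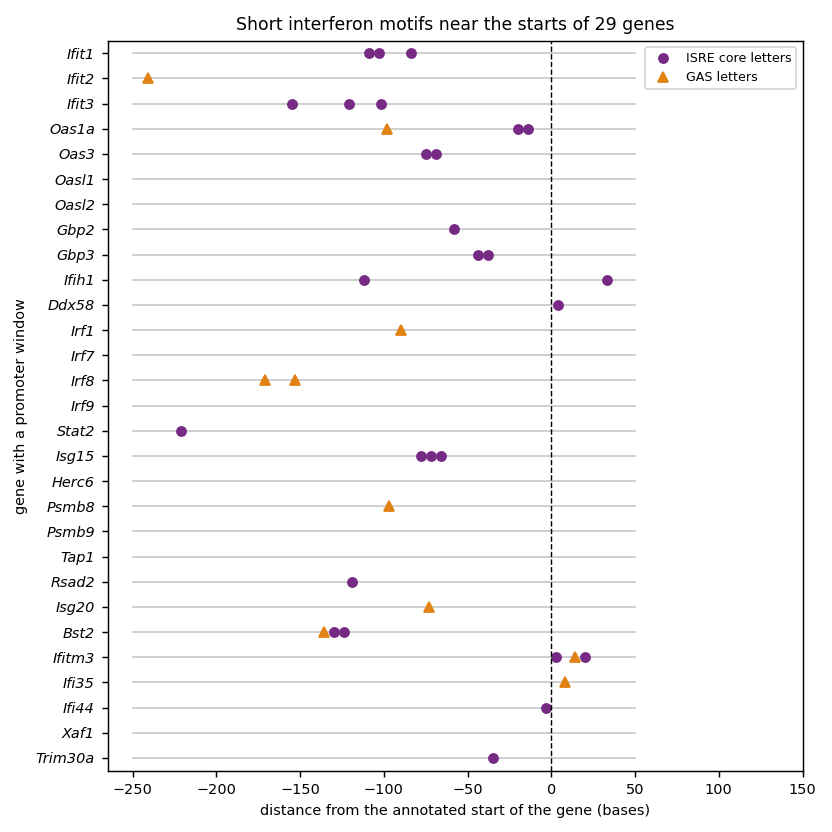
Positions of the ISRE core (circles) and GAS (triangles) letters in the windows of 29 interferon-stimulated genes; the x axis is the distance in bases of the first letter of a match from the annotated start, and each row is a gene. Most ISRE matches lie upstream of the start, as in *Ifit1*, *Ifit3* and *Isg15* with 3 matches each, and 8 genes have no match of either kind. Neighboring matches can share letters.

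The genes as a set stood highest in the adult cortex 1 week after surgery. The median level over the 37 genes was -0.28 with Cy3 and -0.38 with Cy5 in ABH 1 week. In the other 7 pools it was between -2.34 and -1.25 with Cy3 and between -2.53 and -1.41 with Cy5. Of the 36 genes with a signal well above background for both dyes in some pool, 36 had their highest level of all 8 pools in ABH 1 week with both dyes, against 6.55% of all genes measured. The 36 include *Tap1*, which entered only through its signal in ABH 1 week, so its place there was largely set by this filter. The linear signals of the 37 genes, each divided by the 75th percentile of the array, summed to 48.3 and 47.7 on the 2 arrays of ABH 1 week and to between 11.9 and 20.7 on the other 14 arrays.

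**Figure D2:**
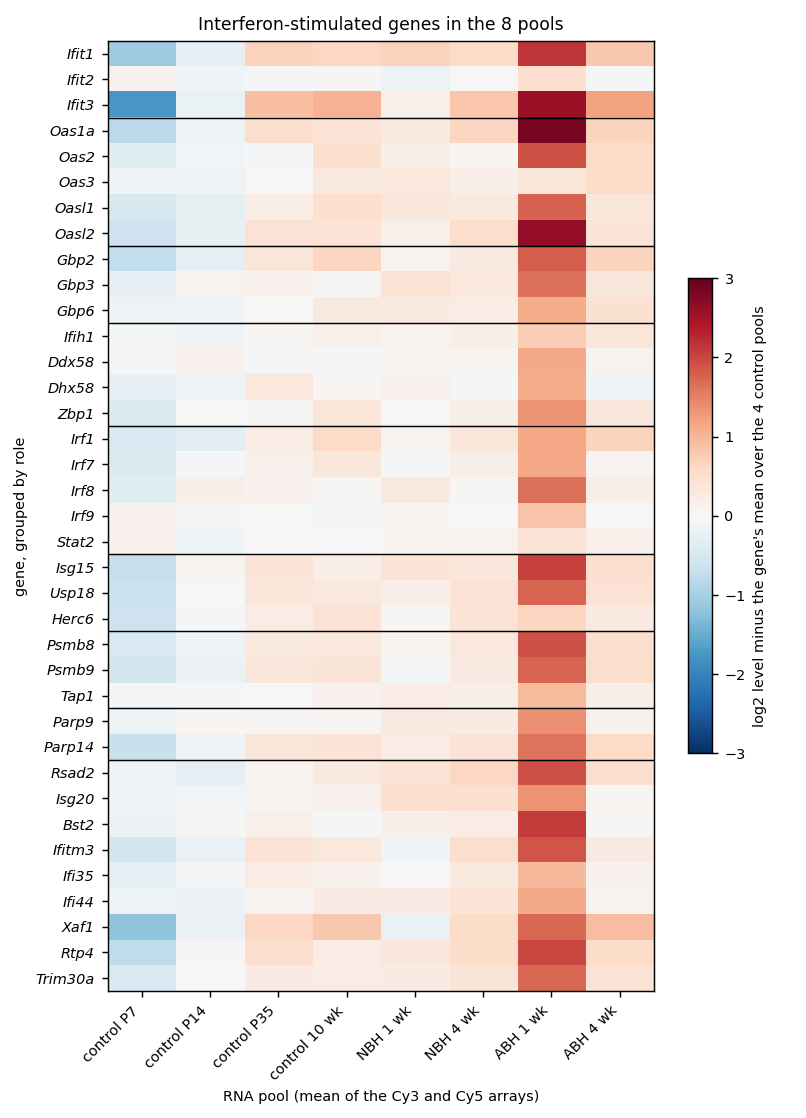
Level of each of the 37 interferon-stimulated genes (rows, grouped by role) in the 8 RNA pools (columns), as the log2 mean of the Cy3 and Cy5 arrays minus the mean of the gene over the 4 control pools. The ABH 1 week column is the reddest for nearly all genes and control P7 the bluest for many. *Oas3*, well above background on 1 of the 16 arrays, and *Stat2* stay pale.

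In ABH 1 week, 31 of the 36 genes compared were called higher than in control 10 weeks, against 4.45% of all genes compared. No gene of the set was called lower, against 6.37%. The median log2 change was 1.25 ± 0.00751 (SD of the medians of the 2 dyes), which is 2.38-fold, where that of all genes was -0.08. With the probes used, all 36 changes were above 0 with both dyes, against 26.2% of all genes. The exceptions to the call were *Ifih1*, *Irf1*, *Ifit2*, *Stat2* and *Herc6*. At 4 weeks after adult surgery none of 35 genes compared was called higher or lower than in control 10 weeks, against 0.43% and 0.197% of all genes, and the median change was 0.11 ± 0.0577. Between the ABH pools, 33 of 36 genes were lower at 4 weeks than at 1 week, against 4.95% of all genes, and none was higher, against 3.8%, with a median change of -1.23. The comparisons of ABH 1 week share its 2 arrays, and both ABH pools share control 10 weeks. *Tap1* entered the counts of these comparisons only through its signal in ABH 1 week.

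**Figure D3:**
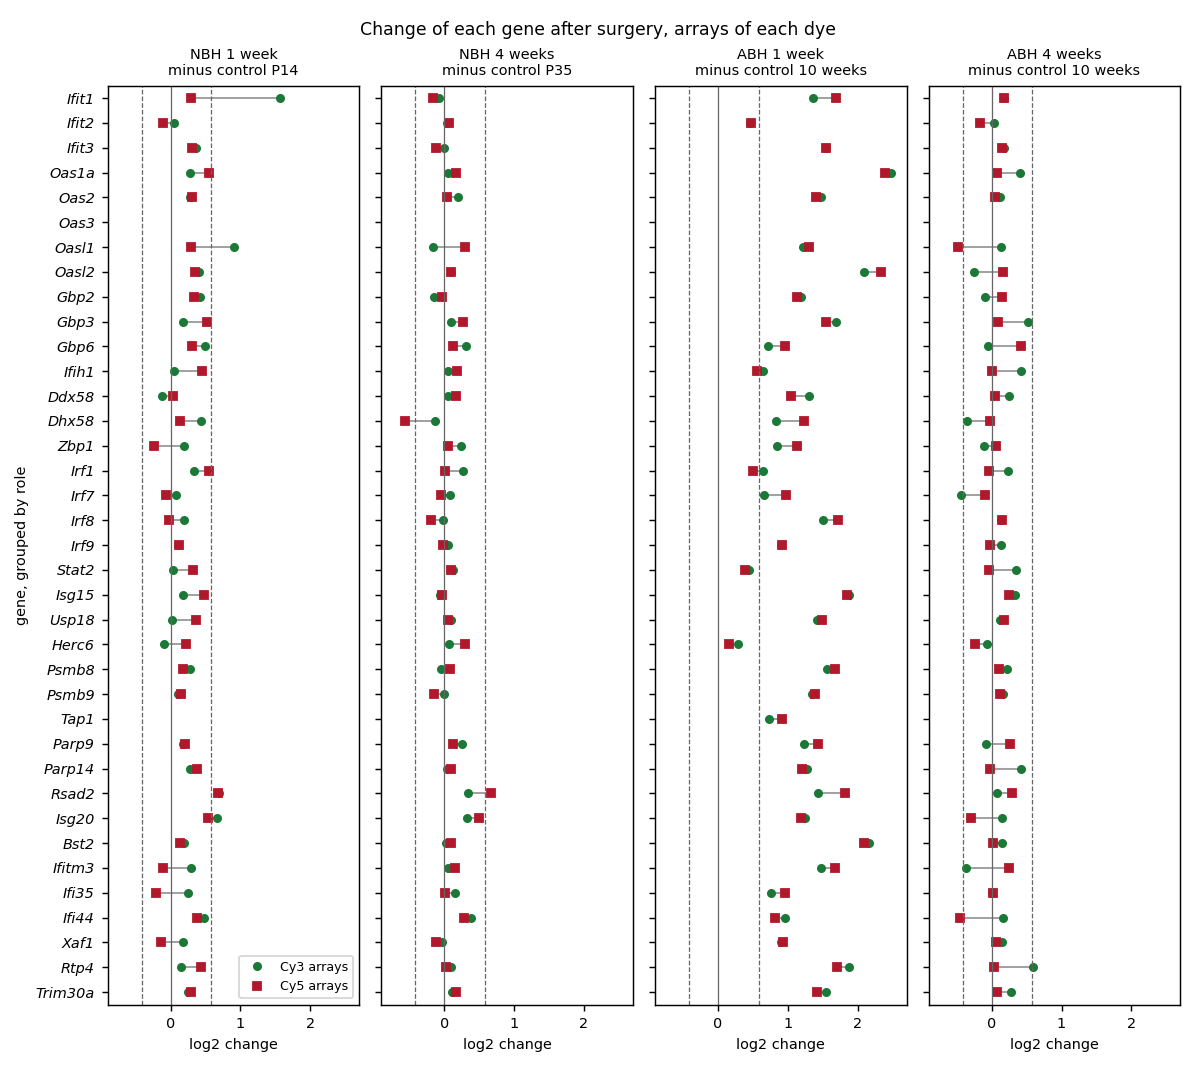
Log2 change of each interferon-stimulated gene in the 4 comparisons of surgery with control, with the Cy3 arrays as circles and the Cy5 arrays as squares; dashed lines mark the limits of 1.5-fold and 0.75-fold, genes not compared are left out, and *Tap1* in ABH 1 week is a bound. In the ABH 1 week panel 31 genes lie beyond the upper limit with both dyes, and in the NBH panels *Rsad2* at 1 week does so.

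The oligoadenylate synthetase family senses double-stranded RNA, and its active members make a second messenger that switches on RNase L. All 4 members compared were called higher in ABH 1 week. *Oas1a* had levels of 0.99 (Cy3) and 0.95 (Cy5) in ABH 1 week, of -1.48 and -1.45 in control 10 weeks, and of -1.08 and -1.36 in ABH 4 weeks. Its levels on the other arrays lay between -2.71 and -1.22, so ABH 1 week overlapped with no other pool. The change was 2.43 ± 0.0533, or 5.40-fold, the largest of the 36 genes with the probes used. A second *Oas1a* probe changed by 1.85 and was also called. *Oasl2*, a relative with a ubiquitin-like part, had levels of 0.96 and 1.16 in ABH 1 week against -1.13 and -1.18 in control 10 weeks. The difference was 4.62-fold, and *Oasl2* was at -1.37 and -1.01 in ABH 4 weeks. *Oas2* changed by 1.43 (log2), from -2.35 and -2.43 to -0.88 and -1.03, and *Oasl1* was 2.41-fold higher. In NBH 1 week the 4 genes had changes of 0.29 to 0.60 and none was called. The second *Oas1a* probe changed by -0.08 there. *Oas3* had 2 ISRE core matches, which share letters, in its window. It was well above background on 1 of the 16 arrays and has no value here.

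Of the IFIT genes, whose proteins bind viral RNA and restrain its translation, 2 of 3 were called. *Ifit1* had levels of -0.80 and -0.66 in ABH 1 week, -2.16 and -2.35 in control 10 weeks and -1.99 and -2.17 in ABH 4 weeks, and its change was 1.52 ± 0.234. *Ifit3* had levels of 1.48 and 1.47 in ABH 1 week against -0.06 and -0.09 in control 10 weeks, a 2.92-fold difference on which the dyes differed little. For both genes the 2 arrays of ABH 1 week were above the other 14. *Ifit2* changed by 0.46 and 0.47 with the 2 dyes, below the limit.

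Among the guanylate-binding proteins, GTPases that attack the vacuoles of intracellular pathogens, all 3 genes measured were called. *Gbp3* was 3.07-fold, *Gbp2* 2.24-fold and *Gbp6* 1.79-fold higher in ABH 1 week. The levels of *Gbp3* were 0.83 and 0.81 there and between -1.14 and -0.20 on the other 14 arrays, without overlap. A second probe for *Gbp6* changed by 0.52 and was not called. Probes for families with near-identical copies, such as the Gbp and Oas1 genes, may also bind the copies.

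Of the sensors of foreign or displaced nucleic acid, 3 of 4 were called. *Ddx58* (RIG-I) was 2.26-fold, *Dhx58* (LGP2) 2.04-fold and *Zbp1*, a sensor of Z-form nucleic acid, 1.99-fold higher. A second *Ddx58* probe changed by 0.57 and 0.43 and was not called. *Ifih1* (MDA5) changed by 0.64 with Cy3 and 0.56 with Cy5, on either side of the limit of 0.58. Its levels in ABH 1 week, -0.66 and -0.77, were above those of the other 14 arrays, which reached -0.89.

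Of the transcription factors that carry the signal, 3 of 5 were called. *Irf8*, a factor of microglia and other myeloid cells, had levels of 1.22 and 1.35 in ABH 1 week, -0.29 and -0.37 in control 10 weeks and -0.15 and -0.22 in ABH 4 weeks, a change of 1.61 ± 0.146. *Irf9*, the DNA-binding part of the complex that recognizes the ISRE, was 1.88-fold higher, and *Irf7*, which amplifies type I interferon production, 1.76-fold. *Stat2*, the partner of IRF9, changed by 0.41 ± 0.0398 and was not called. Its levels in ABH 1 week were 1.15 and 1.28, and the other 14 arrays were all lower, with the nearest being Cy5 of NBH 1 week. *Irf1*, a target of interferon gamma, changed by 0.65 and 0.51, with only Cy3 past the limit.

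*Isg15*, a ubiquitin-like protein that is attached to other proteins, had levels of 2.32 and 2.27 in ABH 1 week, 0.45 and 0.43 in control 10 weeks and 0.78 and 0.68 in ABH 4 weeks. The 3.63-fold difference was also found with its second probe, which changed by 1.64. *Usp18*, the protease that removes ISG15 and restrains the type I receptor, was 2.74-fold higher. *Herc6*, the ligase that attaches ISG15 in mouse, changed by 0.22 ± 0.0848, the smallest change of the set. A second *Herc6* probe changed by -0.002 with Cy3 and 0.14 with Cy5.

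The genes of antigen processing were called in 3 of 3 cases, with *Tap1* compared only through its signal in ABH 1 week. *Psmb8* and *Psmb9*, subunits of the immunoproteasome that cuts peptides for class I presentation, were 3.07-fold and 2.58-fold higher. *Psmb9* had levels of 0.12 and 0.08 in ABH 1 week, -1.22 and -1.30 in control 10 weeks and -1.06 and -1.18 in ABH 4 weeks. *Tap1*, which carries the peptides into the endoplasmic reticulum, was at least 1.77-fold higher. *Psmb9* and *Tap1* lie head to head on chromosome 17 with overlapping promoter windows, and neither motif was found in them.

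*Parp9* and *Parp14*, members of the ADP-ribosyltransferase family that take part in antiviral and interferon signaling, were 2.52-fold and 2.35-fold higher. All 9 remaining effectors were called. *Bst2* (tetherin), which holds budding virus at the membrane, had levels of 1.67 and 1.48 in ABH 1 week against -0.50 and -0.61 in control 10 weeks and -0.35 and -0.59 in ABH 4 weeks. The other 10 arrays lay between -0.73 and -0.24, so ABH 1 week overlapped with no other pool, and the difference from control 10 weeks was 4.37-fold. *Rtp4* was 3.45-fold, *Rsad2* (viperin), which makes a chain-terminating nucleotide, 3.08-fold, and *Ifitm3*, which blocks viral fusion, 2.97-fold higher. *Trim30a*, *Isg20*, *Xaf1*, *Ifi44* and *Ifi35* were between 1.81-fold and 2.79-fold higher.

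**Figure D4:**
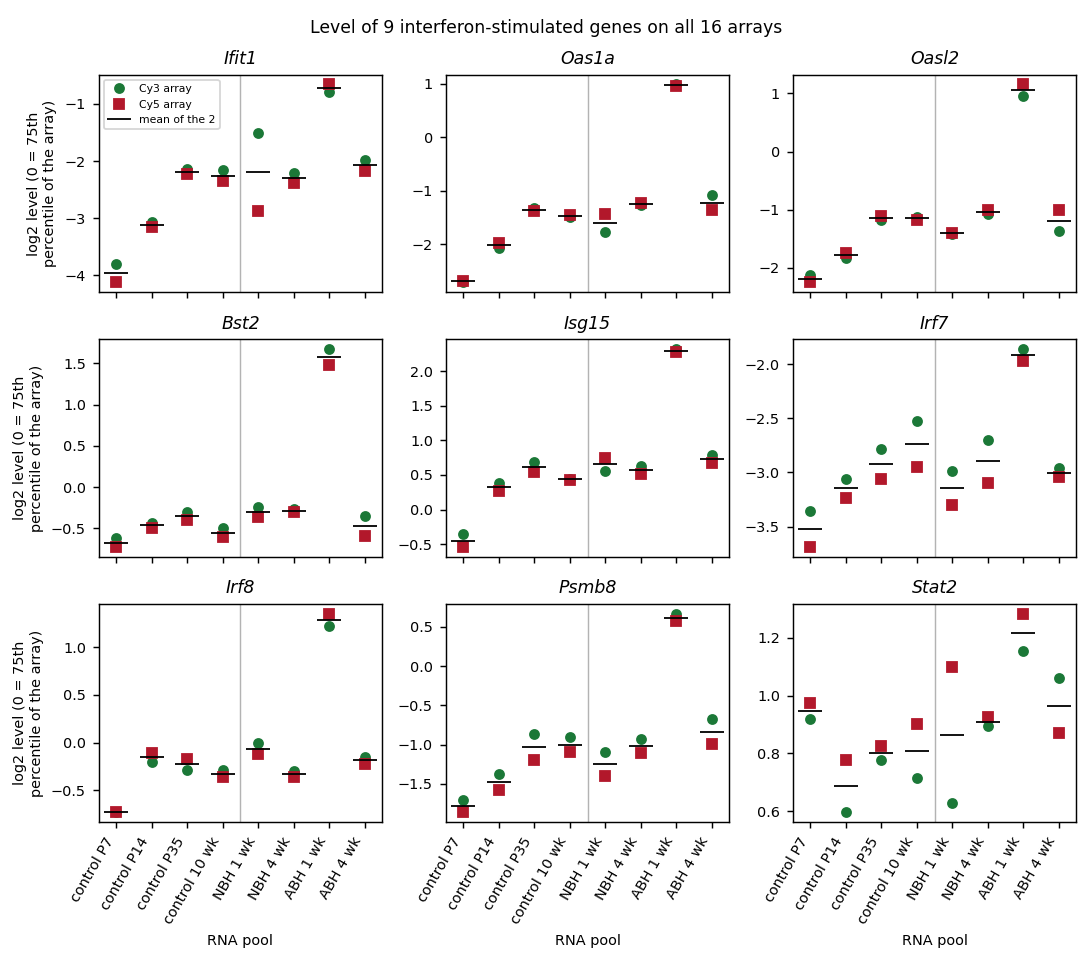
Log2 level of 9 interferon-stimulated genes on all 16 arrays, with Cy3 as circles, Cy5 as squares and their mean as a bar; the 4 control pools are left of the gray line and the 4 surgery pools right of it, and each panel has its own y axis. In all panels ABH 1 week is the highest pool, and in *Stat2* the dyes of NBH 1 week lie far apart.

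The changes are set here beside the letters in the promoter, and a relation between them was not tested. Of the genes with an ISRE core, 12 of 14 compared were called higher in ABH 1 week, with a median log2 change of 1.54. Of those with GAS letters only, 4 of 6 were called (median 1.04), and of those with neither, 7 of 8 (median 0.92). Their ranges overlapped, from 0.41 to 2.43, from 0.47 to 1.62 and from 0.22 to 2.21. *Stat2* had an ISRE core and was not called, and *Oasl2* had none of the letters and was 4.62-fold higher.

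After neonatal surgery the set changed little. In NBH 1 week, 1 of 35 genes compared with control P14 was called higher, against 0.408% of all genes, and none lower, against 0.427%. The gene was *Rsad2*, with levels of -2.61 and -2.66 in NBH 1 week and -3.30 and -3.34 in control P14, where 1 of the 2 arrays was well above background. The change was 1.61-fold, and the call was lost with quantile normalization (0.58) and with median scaling (0.60). *Isg20* changed by 0.66 and 0.54, and *Ifit1* by 1.56 with Cy3 and 0.29 with Cy5, so the dyes did not give the same picture for *Ifit1*. The median change of the 35 genes was 0.27 ± 0.0381, that of all genes 0.06, and 26 of the 35 were above 0 with both dyes, against 36.7% of all genes. The changes of all genes correlated between the dyes with r = 0.24 in this comparison (across 15457 genes, which are not independent replicates) and with r = 0.86 in ABH 1 week.

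In NBH 4 weeks none of 35 genes was called in either direction, against 0.214% of all genes higher and 0.75% lower. The median change was 0.09 ± 0.0201, and single genes lay between -0.35 (*Dhx58*) and 0.51 (*Rsad2*). Set against control 10 weeks in place of P35, again none was called, against 0.253% of all genes higher and 3.29% lower. The median was then 0.039. The largest changes of ABH 1 week had small counterparts here, such as 0.06 and 0.16 for *Oas1a*, 0.03 and 0.09 for *Bst2* and -0.06 and -0.03 for *Isg15*. The difference between the neonatal and the adult response was not tested, since each is 1 pool.

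In the controls the set was lowest at P7. The median level of the 37 genes was -2.43 at P7, -1.88 at P14, -1.47 at P35 and -1.47 at 10 weeks (means of the dyes). From P7 to P14, 25 of 34 genes had a change above 0 with both dyes, against 43.3% of all genes. From P14 to P35 it was 29 of 35, against 32.8%. From P35 to 10 weeks it was 12 of 35, near the 38.6% of all genes, with 13 below 0. Between P7 and 10 weeks, 19 of 35 genes were called higher, against 15.4% of all genes, and none lower, against 21.1%. With median scaling the counts were 11 higher and 1 lower, against 6.95% and 37.8% of all genes. *Ifit3* had the largest change, from -2.84 and -2.92 at P7 through -1.28 and -1.34 at P14 to -0.06 and -0.09 at 10 weeks, or 6.98-fold. *Xaf1*, an antagonist of the apoptosis inhibitor XIAP, was 4.04-fold and *Gbp2* 2.59-fold higher. *Ifit1*, not well above background at P7, was at least 3.09-fold higher. *Bst2* and *Ddx58*, both called in ABH 1 week, changed by 0.12 and 0.03 with age. Over 35 genes the change from P7 to P35 and the change in ABH 1 week, which share no pool, had Pearson's r = 0.38 and Spearman's rho = 0.46, a description of genes measured on shared arrays.

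The genes upstream of the set were examined as a list of 37 pathway genes written from general knowledge, of which 31 were compared in ABH 1 week. Of these, 7 were called higher, against 4.45% of all genes, and none lower, against 6.37%. Their median change was 0.11, and that of all genes -0.08. The interferons themselves gave little signal. *Ifnb1*, *Ifng*, *Ifna4* and *Ifnk* were well above background on none of the 16 arrays, and *Ifne* on 1. *Ifna1* and *Ifna2*, whose probes may bind near-identical copies, were above background on all arrays and changed by -0.33 ± 0.20 and -0.32 ± 0.25 in ABH 1 week.

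Of the receptor chains, *Ifngr1* changed by 0.75 and *Il10rb*, a chain of the interferon lambda and interleukin 10 receptors, by 0.74, and both were called higher in ABH 1 week. *Ifnar2* changed by 0.57, *Ifnar1* by -0.11 and *Ifngr2* by -0.23, without a call. From P7 to 10 weeks, 3 of 31 pathway genes compared were called lower and 2 higher, against 21.1% and 15.4% of all genes. Their median change was 0.17. *Ifnar1* and *Ifngr2* were among the lower ones, by -0.97 and -1.40. The kinases *Jak1*, *Jak2* and *Tyk2* changed by -0.13 to 0.09. The other genes called higher were *Irf5* (0.76), *Trim25*, the ligase that activates RIG-I (0.80), *Tmem173*, which encodes the DNA-signaling adaptor STING (0.92), and the negative regulators *Socs3* (1.00) and *Ptpn6* (2.02), a phosphatase of blood cells and microglia. No pathway gene was called after neonatal surgery, with 30 compared at 1 week and 30 at 4 weeks. The shares of all genes called higher and lower were 0.408% and 0.427% at 1 week, and 0.214% and 0.75% at 4 weeks. The later ABH pool gave no call among 32 pathway genes compared, against 0.43% and 0.197% of all genes. With shares this low, the absence of calls in lists of this size says little about the pathway.

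A further 52 interferon-induced genes on the arrays, not part of the set, were examined in the same way. In ABH 1 week 30 of 51 compared were called higher and 1 lower, against 4.45% and 6.37% of all genes, with a median of 0.76. The largest change was that of *Cxcl10*, a chemokine for activated T cells, with levels of 0.54 and 0.60 in ABH 1 week against -3.30 and -3.41 in control 10 weeks, which is 15.2-fold. *Ifi27l2a* was 10.8-fold, *Ifi204*, a DNA-binding protein of a family with near-identical copies, 10.3-fold, *Ccl5* 6.64-fold and *Lgals3bp* 5.25-fold higher. The class I genes *H2-K1*, *H2-D1* and *B2m* were 3.10-fold, 2.92-fold and 2.19-fold higher, beside the processing genes of the set. *Cxcl9*, a chemokine induced mainly by interferon gamma, was the gene called lower (-0.59), with 1 of its 2 ABH 1 week arrays above background. In NBH 1 week 1 of 50 genes of this list compared was called higher and none lower, against 0.408% and 0.427% of all genes. The gene was again *Cxcl10*, with 2.73-fold and levels of -2.04 and -1.48 against -3.28 and -3.14 in control P14. In NBH 4 weeks none of 49 compared was called, against 0.214% of all genes higher and 0.75% lower. In ABH 4 weeks none of 51 was called, against 0.43% and 0.197%.

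In the same pool, 5 microglia and macrophage markers and 1 astrocyte marker were called higher. Of 9 microglia and macrophage markers, 5 were called higher in ABH 1 week and none lower, against 4.45% and 6.37% of all genes. Among the 5 were *Trem2* (2.04), *Aif1* (1.40), *Cx3cr1* (0.90) and *Csf1r* (0.84). All 9 markers were above background. Their linear signals summed to 133 on each array of ABH 1 week and to between 54.0 and 101 on the other 14. *P2ry12*, *Ptprc* and *Tmem119* changed by 0.49, 0.45 and 0.39 without a call, and *Itgam* was saturated on some arrays. Of the 9, 8 were above 0 with both dyes and 1 was below 0 with both, at -0.18. That marker had the highest level of the 9, 5.52 in control 10 weeks and 5.34 in ABH 1 week, and weighs most in the sums. The highest levels of all genes in these pools were 5.64 and 5.54. Of 5 astrocyte markers *Gfap* was called higher (2.92), against 4.45% of all genes, and the rest changed by 0.29 to 0.56. In tissue RNA, more cells of a type and more RNA per cell cannot be told apart, and the part of these markers in the change of the interferon genes was not tested.

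Lymphocyte markers were called higher in none of 7 cases in ABH 1 week and lower in 3, against 4.45% and 6.37% of all genes. The lower calls of *Cd8a* and *Cd2* are bounds, since neither was well above background in ABH 1 week, and the defining genes *Cd3d*, *Cd3g* and *Ms4a1* were not above background on both arrays of either pool. Their summed signal was 11.1 and 11.6 in ABH 1 week and between 8.52 and 14.8 in the controls. Of 7 endothelial markers none was called (median 0.02), against 4.45% of all genes higher and 6.37% lower. Of the 9 choroid plexus markers, the summed signal was 2.03 and 1.99 in ABH 1 week, between 1.76 and 3.04 in the controls, and 36.6 and 36.8 in NBH 1 week, 17.8 and 17.1 in NBH 4 weeks and 29.5 and 27.9 in ABH 4 weeks. The part of these markers in the changes of the interferon genes was not tested.

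**Figure D5:**
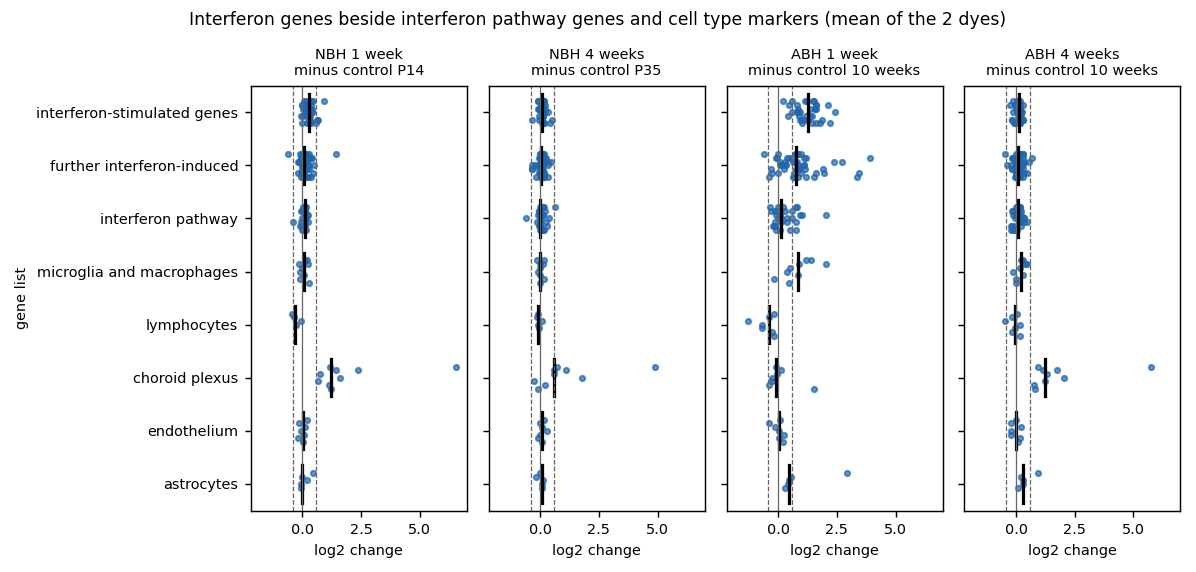
Log2 change (mean of the 2 dyes) of each gene of 8 lists in the 4 comparisons of surgery with control, with the median of each list as a black bar; dashed lines mark 1.5-fold and 0.75-fold, and genes not compared are left out. In ABH 1 week the median of the interferon-stimulated genes is 1.25 and that of the pathway genes 0.11, and the choroid plexus dots stand apart in the other 3 panels, with *Ttr* farthest to the right.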

How the data were processed

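Total RNA of 8 pools was hybridized to 16 Agilent 8 × 60 K arrays. As deposited, the scanner tables hold spot intensity and local background, made by the authors with Agilent Feature Extraction 11.0.1.1 (per the labels), before normalization. The deposited value table holds the processed intensity of the labeled channel, unscaled. Here, median intensity was background-corrected with limma 3.58.1 (normexp, offset 50, R 4.3.3) and log2-transformed, and the 75th percentile over the spots for genes was subtracted. Outlier spots (140 to 237 per array) were dropped, repeated spots averaged and probes named by RefSeq accession (GRCm38.p6, names only; 26582 of 55681 probes). On an array where a probe was not well above background, the lowest signal well above background replaced a lower value. The further steps used Python 3.11.15 and were tested on simulated data. The number of arrays limits the precision.

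The rule for named genes was all members by role and, of the pathway and further lists, genes called in a surgery comparison. Uncalled pathway genes and single markers were chosen after their values were seen. With 1 pool per group no test was run. Members and lists were chosen with earlier results of these data known. The counts were repeated with 11 alternatives. Some genes of the lists are not reported here by name.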

Additional observations from a re-analysis of the deposited data

How the results depend on the processing

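The direction of the set in ABH 1 week did not depend on the processing. All 36 genes compared stayed above 0 in each of the settings tried, and 30 were called in every one. The 36 include *Tap1*, compared only through its signal in ABH 1 week. The count was 30 to 34 in place of 31, where between 3.67% and 7.77% of all genes were called higher. With Cy3 alone it was 33 and with Cy5 alone 31, against 5.36% and 5.95% of all genes. The median change of 1.25 was 1.56 with the processed signal, 1.66 with the unscaled value table, 1.40 with quantile normalization, 1.51 with median scaling, 1.40 with a normexp offset of 0, 1.23 without a background filter, 1.36 against control P35 and 1.26 to 1.27 with 1 dye. For ABH 4 weeks against 1 week it was -1.42, -1.68, -1.36, -1.53 and -1.37 in the first 5 of these settings. Median scaling moved the median of all genes in ABH 1 week from -0.08 to 0.18.

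In NBH 1 week the count of 1 higher gene was 3 with the processed signal, 0 with quantile normalization or median scaling and 1 to 4 with 1 dye, and the median was 0.11 (value table), 0.19 (quantile), 0.19 (median scaling) and 0.31 (offset 0). In NBH 4 weeks the median was 0.060 (processed), -0.17 (value table), 0.067 (quantile), 0.024 (median scaling), 0.039 (control 10 weeks) and 0.061 to 0.089 with 1 dye. There 2 genes were lower in the value table, against 7.60% of all genes. With Cy5 alone 1 was higher and 1 lower, against 1.02% and 2.15%. With Cy3 alone none was called, against 2.00% higher and 1.86% lower. In ABH 4 weeks 1 gene was lower with the processed signal and 1 in the value table, against 0.713% and 2.99% of all genes. The median in the value table was -0.030. With Cy3 alone 1 was higher and 1 lower, against 3.10% and 5.70%. With Cy5 alone none was higher and 2 were lower, against 1.61% and 1.25%. The unscaled value table also moved the median of all genes, to -0.12 in NBH 1 week, -0.20 in NBH 4 weeks (7.60% of all genes called lower) and -0.10 in ABH 4 weeks. From P7 to 10 weeks the median of 0.78 was 0.98 (processed), 0.83 (value table), 0.46 (quantile), 0.47 (median scaling), 0.92 (offset 0) and 0.69 (mean of all probes). Median scaling gave 11 higher and 1 lower, against 6.95% and 37.8% of all genes, whose median it moved to -0.29. The cause of these shifts was not tested. No paired analysis was possible because each group is 1 pool and the replicate numbers are dyes.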

Other observations

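In ABH 1 week, 10 of the genes had more than 1 probe. The second probe was compared for 7 of them and gave the same call in 5, the exceptions being *Ddx58* and *Gbp6*. *Xaf1*, whose second probe was not above background, was 1.89-fold higher with the probe used and changed by 0.44 in the mean of its probes, the 1 gene that lost its call with that setting.

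In the channel that carried no labeled RNA, between 0 and 1 of the 37 genes were well above background per array.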
